A study of Homo sapiens with 8 samples.

Results

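The human mitochondrial genome encodes a small set of protein subunits of the respiratory chain, and 10 of these transcripts were examined across 8 RNA sequencing libraries. They were chosen by symbol alone: MT-ND1, MT-ND2, MT-ND3, MT-ND4 and MT-ND5 of complex I, MT-CYB of complex III, MT-CO1, MT-CO2 and MT-CO3 of complex IV, and MT-ATP6 of complex V. The deposited table lists 35369 genes with a symbol, of which 13030 passed a filter on low values, which asks for 1 ppm or more of the summed linear values in 2 or more libraries. All 10 of the mitochondrial transcripts passed it in these libraries.

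The cells were MOLM13, an established human acute myeloid leukemia line, sequenced in 4 groups of 2 libraries. The control group carried a wild-type genotype label, and the knockdown group was labelled as IGF2BP2 knockdown, by a short hairpin according to its title. The rescue and mutant rescue groups were labelled as IGF2BP2 rescue and as a mutant form of that rescue. IGF2BP2 is an RNA-binding protein that recognises N6-methyladenosine on messenger RNA. By the protocol that all samples share, target cells were infected with virus in the presence of polybrene and treated with puromycin where selection was needed, and polyadenylated RNA was selected. The mutation, the hairpin and any empty vector in control or knockdown cells are not described, nor is it stated that the 2 libraries of a group came from separate cultures. The p-values therefore measure no more than the spread between libraries, and this spread may be technical.

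IGF2BP2 itself lay at log2 values of 10.94 and 10.89 in control, 10.24 and 10.25 in knockdown, 11.36 and 11.13 in rescue, and 11.03 and 10.68 in mutant rescue. It was lower in knockdown than in control by limma (log2 difference -0.67, Benjamini-Hochberg adjusted p = 0.0147) and higher in rescue than in knockdown (1.00, adjusted p = 0.00324). All 12 markers of myeloid leukemia cells passed the filter, against 2 of 12 markers of other cell types (KRT8 and KRT18), and CD3E, MS4A1 and HBA1 were listed at 0. Read depth is unknown, because the values were deposited on a log2 scale after normalization.

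Mitochondrial DNA is transcribed from both strands as long precursors that are cut apart, largely at the transfer RNAs that lie between the coding genes. The released messenger RNAs are short of untranslated sequence and most receive a poly(A) tail, which is how they enter a library made from polyadenylated RNA. Their steady levels follow both synthesis and decay, the second of which differs between messenger RNAs of the same precursor. The proteins they encode sit in the inner membrane as the core of complexes that also need many nuclear-encoded subunits.

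In GENCODE v29 (GRCh38) each of the 10 is a gene of a single coding exon on the plus strand of chromosome M. The last 24 bases of 7 of them are shown because the poly(A) tail that the libraries selected is added at or after this end, and because the genes finish in different ways. Capitals mark the last codon where it is complete, and the bases left after the last full codon where it is not.

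MT-ND1, chromosome M from 3307 to 4262: ctccagcattccccctcaaaccTA
MT-ND2, chromosome M from 4470 to 5511: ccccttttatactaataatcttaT
MT-ND4, chromosome M from 10760 to 12137: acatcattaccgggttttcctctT
MT-ND5, chromosome M from 12337 to 14148: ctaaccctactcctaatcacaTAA
MT-CYB, chromosome M from 14747 to 15887: aaaacaaaatactcaaatgggccT
MT-CO1, chromosome M from 5904 to 7445: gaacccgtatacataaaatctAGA
MT-CO2, chromosome M from 7586 to 8269: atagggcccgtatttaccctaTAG

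In 6 of the 10 (MT-ND1, MT-ND2, MT-ND3, MT-ND4, MT-CO3 and MT-CYB) the gene stops within a codon, and the tail itself supplies the missing adenines of the stop. The other 4 carry a whole last codon, which is TAA in MT-ND5 and MT-ATP6, TAG in MT-CO2 and AGA in MT-CO1. The remaining positions are 10059 to 10404 for MT-ND3, 9207 to 9990 for MT-CO3 and 8527 to 9207 for MT-ATP6. MT-ATP6 overlaps the neighbouring MT-ATP8 (8366 to 8572) and MT-ND4 overlaps MT-ND4L (10470 to 10766), so that reads from the shared bases could be given to either gene and the values of these pairs are uncertain to that extent.

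Together the 10 transcripts made up 0.539% and 0.678% of the linear total in the control libraries, 0.725% and 0.746% in knockdown, 0.499% and 0.525% in rescue, and 0.696% and 0.914% in mutant rescue. Both rescue libraries were thus below every other library, and both knockdown libraries were above both control libraries. The group means were 0.609% ± 0.0983 (SD, n = 2) in control, 0.736% ± 0.0148 in knockdown, 0.512% ± 0.0184 in rescue and 0.805% ± 0.154 in mutant rescue. With 2 libraries against 2, the exact permutation test (two-sided) cannot go below p = 0.333, and it gave that value for each pair of groups except mutant rescue against knockdown, whose libraries overlapped (exact permutation p = 1.0). In bulk RNA, fewer mitochondria or mitochondrial genomes per cell cannot be told apart from less RNA per genome. The sources do not say whether the values were corrected for transcript length, so the 10 were not ranked against each other.

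**Figure D1:**
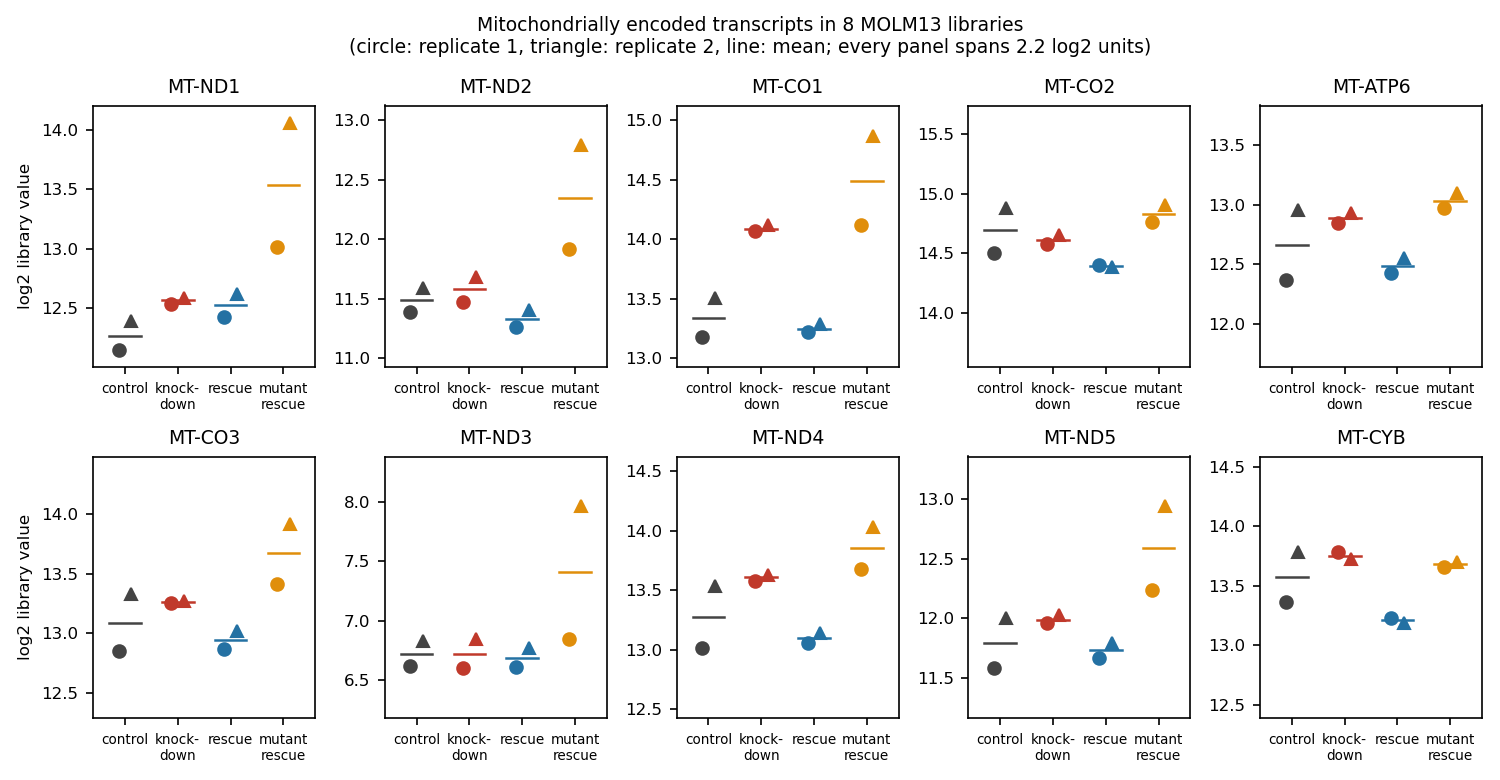
Log2 library value of each of the 10 transcripts (vertical axis, every panel spanning 2.2 log2 units) in the 4 groups; circles are replicate 1, triangles replicate 2 and lines the mean of both. In MT-CO1 the 2 knockdown libraries (14.07 and 14.12) sit above both control and both rescue libraries. In every panel but that of MT-CYB the second mutant rescue library is the highest.

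MT-CO1, which encodes the catalytic subunit of cytochrome c oxidase, had the largest difference of the 10 between knockdown and control. It was measured at 13.18 and 13.51 in control, 14.07 and 14.12 in knockdown, 13.22 and 13.29 in rescue, and 14.12 and 14.87 in mutant rescue. The libraries thus fell in 2 bands that did not overlap, with control and rescue in the lower one and knockdown and mutant rescue in the upper one. In knockdown against control the difference was 0.75 on the log2 scale (SE 0.22, 1.68-fold), which was not called (limma, adjusted p = 0.0559). In the authors' deposited table, made by another test, MT-CO1 was the single transcript of the 10 called in this comparison (log2 change 0.84, adjusted p = 8.8e-07).

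MT-CO2 and MT-CO3, the other mitochondrial subunits of complex IV, did not follow it. MT-CO2 lay at 14.50 and 14.88 in control and at 14.58 and 14.65 in knockdown, and MT-CO3 at 12.85 and 13.33 in control and at 13.25 and 13.27 in knockdown. In both genes the knockdown libraries fell between the control libraries. The differences were -0.07 (SE 0.14, adjusted p = 0.767, limma) for MT-CO2 and 0.17 (SE 0.19, adjusted p = 0.613) for MT-CO3.

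Among the complex I transcripts, MT-ND1 and MT-ND4 were also higher in both knockdown libraries than in both control libraries. MT-ND1, a membrane subunit next to the ubiquinone site, had 12.15 and 12.39 in control and 12.54 and 12.59 in knockdown. MT-ND4, a subunit of the proton-pumping membrane arm, had 13.02 and 13.54 in control and 13.58 and 13.63 in knockdown, where the nearest libraries of the groups lay closer than the control libraries to each other. MT-ND2, MT-ND3, MT-ND5, MT-CYB and MT-ATP6 overlapped between the groups, with differences of 0.00 to 0.23.

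No member was therefore called in knockdown against control by limma, where 12.8% of all genes tested were, and 1 of 10 passed an unadjusted p of 0.05, where 29% of all genes did. The authors' deposited table calls 1 of 10 higher, against 3.82% of the genes it tests. In 3 of 10 both knockdown libraries were above both control libraries; over all genes the share was 32.7%. The median difference was 0.20, against 0.01 over all genes tested. This median rests on the first control library, the lower of the pair in all 10 transcripts: it was -0.02 without that library and 0.41 without the other. MT-CO1 kept its direction in every such fit (0.59 to 0.91) and was called without either mutant rescue library (adjusted p = 0.00567 and 0.00558), the libraries with the widest spread.

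The comparison of rescue with knockdown used the same 2 knockdown libraries. MT-CYB, the cytochrome b of complex III, lay at 13.78 and 13.72 in knockdown and at 13.23 and 13.19 in rescue, with 13.36 and 13.78 in control and 13.66 and 13.70 in mutant rescue. Both rescue libraries were the lowest of the 8. The difference from knockdown was -0.54 (SE 0.13, adjusted p = 0.065, limma), next to -0.84 (SE 0.22, adjusted p = 0.0721) for MT-CO1 and -0.51 (SE 0.18, adjusted p = 0.158) for MT-ND4.

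MT-ATP6, the subunit of ATP synthase through which protons enter the membrane rotor, lay at 12.85 and 12.93 in knockdown and at 12.43 and 12.55 in rescue. The difference was -0.40 (SE 0.17, adjusted p = 0.244, limma), and both rescue libraries were below both knockdown libraries. By contrast MT-ND1 was at 12.43 and 12.62 in rescue, which overlapped its knockdown values, and its difference was -0.04 (SE 0.27). MT-ND3 overlapped as well, at 6.61 and 6.77 in rescue against 6.60 and 6.85 in knockdown.

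In 8 of 10 transcripts both rescue libraries were below both knockdown libraries, where this held for 26.9% of all genes tested. By limma none of the 10 was called, with 4.24% of all genes called, and 4 of 10 passed an unadjusted p of 0.05, with 19.7% of all genes. The authors' deposited table calls 5 lower (MT-CO1, MT-CYB, MT-ND4, MT-ATP6 and MT-CO3), against 1.75% of the genes it tests, and its log2 change for MT-CO1 is -1.0 (adjusted p = 2.49e-18). The median difference was -0.29, against 0.00 over all genes tested. Fitted on these 2 groups alone, limma called 5 of the 10, and MT-CO1 passed at adjusted p = 0.00129; this fit called 1246 genes in all, against 553 in the fit of all groups. MT-CYB was called without either control library (adjusted p = 0.0174 each) and MT-CO1 without either mutant rescue library (0.00549 and 0.00532).

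Set against control, with which it shares no library, the rescue group had MT-ND1 higher in both libraries (0.26, SE 0.27, adjusted p = 0.655, limma), and MT-CYB (-0.36, SE 0.13, adjusted p = 0.163) and MT-CO2 (-0.30, SE 0.14, adjusted p = 0.245) lower in both. The other 7 overlapped. No member was called, where 7.18% of all genes were, and 1 of 10 passed an unadjusted p of 0.05 (22.4% of all genes). The shares of all genes with both rescue libraries higher or lower were 26.1% and 26.0%. The authors' deposited table calls none of the 10 there either, and 4.92% of the genes it tests. The median was -0.15, and it turned to 0.08 without the second control library. MT-CYB was called without the first control library (-0.57, adjusted p = 0.0324).

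**Figure D2:**
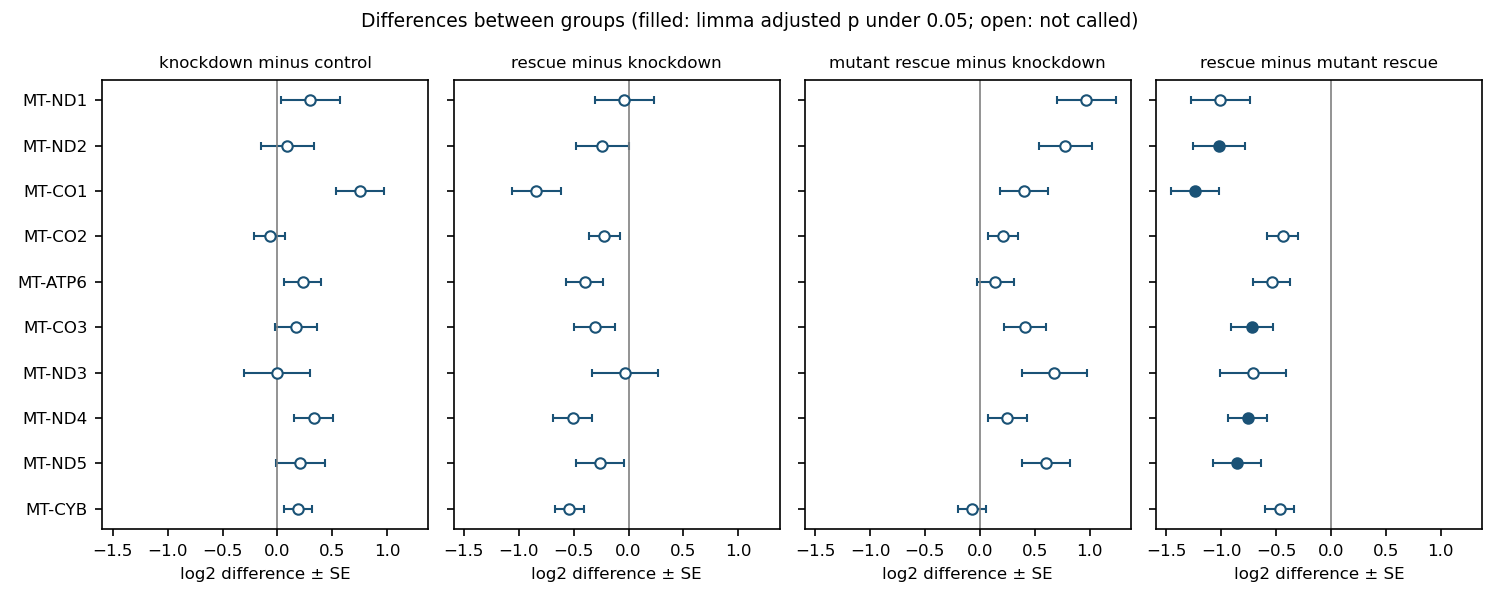
Log2 difference with its standard error (horizontal axis) for each transcript in 4 comparisons; filled points had a limma adjusted p under 0.05. Filled points occur in rescue minus mutant rescue alone, where all 10 lie left of 0 and 5 are filled, from -0.72 for MT-CO3 to -1.24 for MT-CO1.

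The 2 mutant rescue libraries disagreed in most of these transcripts, and this bears on each result that uses them. Replicate 2 exceeded replicate 1 by 1.12 in MT-ND3, 1.03 in MT-ND1, 0.87 in MT-ND2, 0.74 in MT-CO1 and 0.70 in MT-ND5. The same 2 libraries differed by 0.04 in MT-CYB, 0.13 in MT-ATP6 and 0.14 in MT-CO2. Among the 3 mitochondrially encoded genes outside the set, MT-ND6 differed by 1.05, MT-ATP8 by -0.14 and MT-ND4L by -0.16. MT-ND6 is encoded on the other strand, and no source used here tells whether reads were counted by strand.

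The size of this gap was set beside features of the genes. Over the 13 genes its Pearson's r was 0.25 with gene length, 0.053 with GC content and -0.21 with the position of the gene's start, given as a description of points that share the same pair of libraries. Genes with a large gap and a small one are interspersed along the genome, as with MT-ATP6 and MT-ND3 on either side of MT-CO3 (0.51). Genes that stop within a codon had gaps of 1.03 (MT-ND1), 0.87 (MT-ND2), 0.51 (MT-CO3), 1.12 (MT-ND3), 0.35 (MT-ND4) and 0.04 (MT-CYB). Those with a whole last codon had 0.74 (MT-CO1), 0.14 (MT-CO2), -0.14 (MT-ATP8), 0.13 (MT-ATP6), -0.16 (MT-ND4L), 0.70 (MT-ND5) and 1.05 (MT-ND6). The last codons of MT-ATP8 (ending at 8572) and MT-ND4L (ending at 10766) lie within MT-ATP6 and MT-ND4, so a tail need not follow them. The types of end were not tested against each other. Over all genes the SD of the difference between replicates was 0.3029 in mutant rescue, against 0.148 in knockdown.

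**Figure D3:**
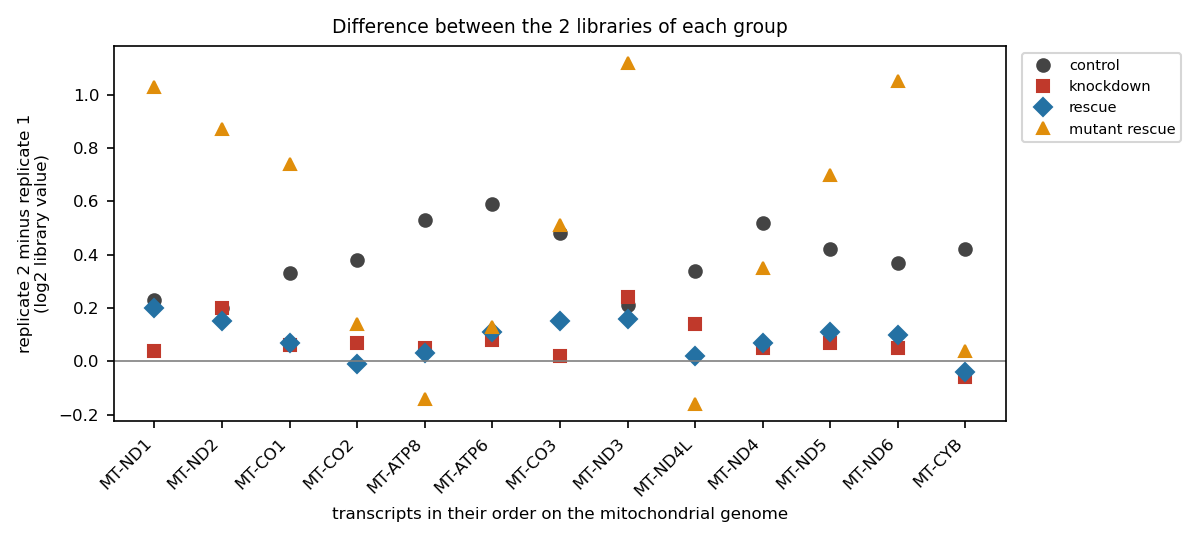
Replicate 2 minus replicate 1 of each group (vertical axis, log2 library value) for the 13 mitochondrially encoded genes in their order along the genome. Mutant rescue runs from -0.16 (MT-ND4L) to 1.12 (MT-ND3), and the control points lie between 0.20 and 0.59.

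Mutant rescue against knockdown used the same knockdown libraries again. MT-ND1 had 13.02 and 14.06 in mutant rescue against 12.54 and 12.59 in knockdown, a difference of 0.97 (SE 0.27, adjusted p = 0.0539, limma). MT-ND2, another subunit of the complex I membrane arm, had 11.92 and 12.79 against 11.47 and 11.68, a difference of 0.78 (SE 0.24, adjusted p = 0.0673). MT-CYB had 13.66 and 13.70 against 13.78 and 13.72, and its difference was -0.07 (SE 0.13).

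In 9 of 10 transcripts both mutant rescue libraries were above both knockdown libraries, where 37.1% of all genes were, and in MT-CYB both were below (25.9% of all genes). In MT-ND3 the order rests on a pair of libraries whose values are equal to 2 decimals (6.85). The linear totals were also larger in mutant rescue (15460700 and 16081500) than in knockdown (13523700 and 13561300). As shares of these totals the 10 overlapped, at 0.696% and 0.914% against 0.725% and 0.746%. With the libraries scaled to equal linear totals without mitochondrial rows, the differences of MT-CO2 and MT-ATP6 turned to -0.01 and -0.08. How many of the 9 stay apart on that scale was not counted. No member was called by limma, where 11.3% of all genes were, and 3 of 10 passed an unadjusted p of 0.05 (33.5% of all genes). The authors' deposited table calls MT-ND2 (log2 change 0.99, adjusted p = 0.00724) and MT-ND5 (0.74, adjusted p = 0.0321), against 2.48% of the genes it tests called higher. The median was 0.40, against 0.05 over all genes. It was 0.13 without mutant rescue replicate 2 and 0.72 without replicate 1, and in the latter fit 6 of the 10 were called, with 2801 calls over all genes against 1473 in the fit of all libraries.

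Rescue and mutant rescue, which share no library, were apart throughout the set. In all 10 both rescue libraries were below both mutant rescue libraries, where this held for 30.2% of all genes tested. Limma called 5 of 10 lower and none higher, with 4.61% of all genes called lower and 5.9% higher, and all 10 passed an unadjusted p of 0.05 (31.2% of all genes). The authors' deposited table calls 9 lower, all but MT-CO2, against 2.38% of the genes it tests. The median difference was -0.74, against -0.02 over all genes.

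By complex, the lower calls were 3 of the 5 complex I transcripts, 2 of the 3 of complex IV, and neither MT-CYB nor MT-ATP6. MT-CO1 had 13.22 and 13.29 in rescue against 14.12 and 14.87, a difference of -1.24 (SE 0.22, adjusted p = 0.0122, limma), or 0.423 of the mutant rescue level. MT-CO3 had 12.87 and 13.02 against 13.41 and 13.92 (-0.72, SE 0.19, adjusted p = 0.0497). MT-CO2 had 14.40 and 14.38 against 14.76 and 14.90, and its difference of -0.44 (SE 0.14, adjusted p = 0.0728) was not called.

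In complex I, MT-ND2 had 11.26 and 11.41 in rescue against 11.92 and 12.79 (-1.02, SE 0.24, adjusted p = 0.0335, limma). MT-ND4 had 13.06 and 13.14 against 13.68 and 14.03 (-0.76, SE 0.18, adjusted p = 0.0323), and MT-ND5, a further proton-pumping subunit, had 11.67 and 11.79 against 12.24 and 12.94 (-0.86, SE 0.22, adjusted p = 0.0405). In these 3 the distance between the nearest libraries of the groups was smaller than that between the mutant rescue libraries for MT-ND2 and MT-ND5, and larger for MT-ND4. MT-ND1 (-1.01, SE 0.27, adjusted p = 0.0505) and MT-ND3 (-0.71, SE 0.30, adjusted p = 0.151) were not called. MT-ND3 had low values, 6.61 and 6.77 in rescue against 6.85 and 7.96, and differences of low genes are understated on this scale. In the authors' deposited test its log2 change is -1.48 (adjusted p = 0.0497). That test also gave larger changes for the more abundant MT-CO1 (-1.53) and MT-ND2 (-1.31), so differences on this scale may be understated beyond low genes.

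MT-CO1 is the transcript whose call against mutant rescue did not rest on mutant rescue replicate 2: without it the difference was -0.87 (adjusted p = 0.0159, limma). Without that library MT-ND2 was at -0.58 (adjusted p = 0.0517), MT-ND4 at -0.58 (0.115), MT-ND5 at -0.51 (0.113) and MT-CO3 at -0.46 (0.169). All 5 calls were lost without rescue replicate 1 or without rescue replicate 2, with adjusted p for MT-CO1 of 0.0529 and 0.0721, 1 remained without either knockdown library, and those of MT-ND2 and MT-ND5 were lost without either control library. With either control library or mutant rescue replicate 1 left out, more of the transcripts were called than with all libraries. MT-CYB, MT-ATP6 and MT-CO2, outside the 5, were each called in some fit that left out 1 library. None of the 5 was called with only the 2 groups fitted. The call of MT-CO3 was also lost with no filter (adjusted p = 0.0531), without a mean trend (0.0592), with equal medians (0.0518) and with equal linear totals (0.0505), and that of MT-ND5 without a mean trend (0.0509). IGF2BP2 was not equal between these groups in level (rescue minus mutant rescue 0.39, SE 0.13, adjusted p = 0.0839), and its part in the differences was not tested.

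Mutant rescue against control shared the mutant rescue libraries with the comparison just described. MT-ND1 had a difference of 1.27 (SE 0.27, adjusted p = 0.0125, limma; 2.41-fold) and MT-CO1 of 1.15 (SE 0.22, adjusted p = 0.00713; 2.22-fold). MT-ND2 (0.87), MT-ND5 (0.80) and MT-ND4 (0.58) were called as well, which made 5 of 10 higher and none lower, where 13.9% of all genes were called higher and 11% lower, and 6 of 10 passed an unadjusted p of 0.05 (39.4% of all genes). The libraries of MT-CYB (0.12, SE 0.13) and MT-CO2 (0.14, SE 0.14) overlapped, and those of the other 8 lay higher in mutant rescue without overlap (31.5% of all genes). With the libraries scaled to equal linear totals, these 2 differences turned to -0.04 and -0.01. For MT-ND1 and MT-CO1 the authors' deposited log2 changes were larger, at 1.63 and 1.42, so the folds given here may be too small.

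Without mutant rescue replicate 2, MT-ND1 (0.75, adjusted p = 0.00853, limma) and MT-CO1 (0.78, adjusted p = 0.00958) were still called, while MT-ND2 (0.43, adjusted p = 0.0643), MT-ND4 (0.41, 0.17) and MT-ND5 (0.45, 0.0943) were not. Without control replicate 1 none of the 5 was, with MT-CO1 at 0.99 (adjusted p = 0.062) and MT-ND1 at 1.15 (0.0883), and 2 were without either knockdown library. MT-ND4 was not called without either rescue library, without a mean trend (adjusted p = 0.0509), with equal medians (0.0615) or with equal linear totals (0.0636). The authors' deposited table calls 7 of the 10 higher in this comparison, which adds MT-ND3 and MT-CO3, against 6.68% of the genes it tests.

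Beyond the shared shift, the transcripts moved against each other. Each was set against the mean of the other 9 in the same library, which leaves out any scaling of the library. On this scale MT-CO1 was 1.2 and 1.14 in control, 1.77 and 1.75 in knockdown, 1.22 and 1.19 in rescue, and 1.62 and 1.82 in mutant rescue, so that control and rescue were again apart from knockdown and mutant rescue. MT-CO2 was highest on this scale in control (2.66 and 2.67), with 2.35 and 2.34 in knockdown, 2.53 and 2.41 in rescue, and 2.33 and 1.86 in mutant rescue.

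MT-ND1 followed another order. It was 0.06 and -0.10 in control, 0.08 and 0.05 in knockdown, 0.34 and 0.45 in rescue, and 0.40 and 0.92 in mutant rescue, and both rescue groups lay above control and knockdown in every library. MT-CYB ran the other way, with 1.40 and 1.44 in control, 1.46 and 1.31 in knockdown, 1.23 and 1.09 in rescue, and 1.11 and 0.53 in mutant rescue. MT-CO3 moved least against the rest, with a range of 0.17 over the 8 libraries, and MT-ND1 most, with 1.03. These values are descriptions with no test, and a ratio within a library shows unequal change, not which transcript changed.

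**Figure D4:**
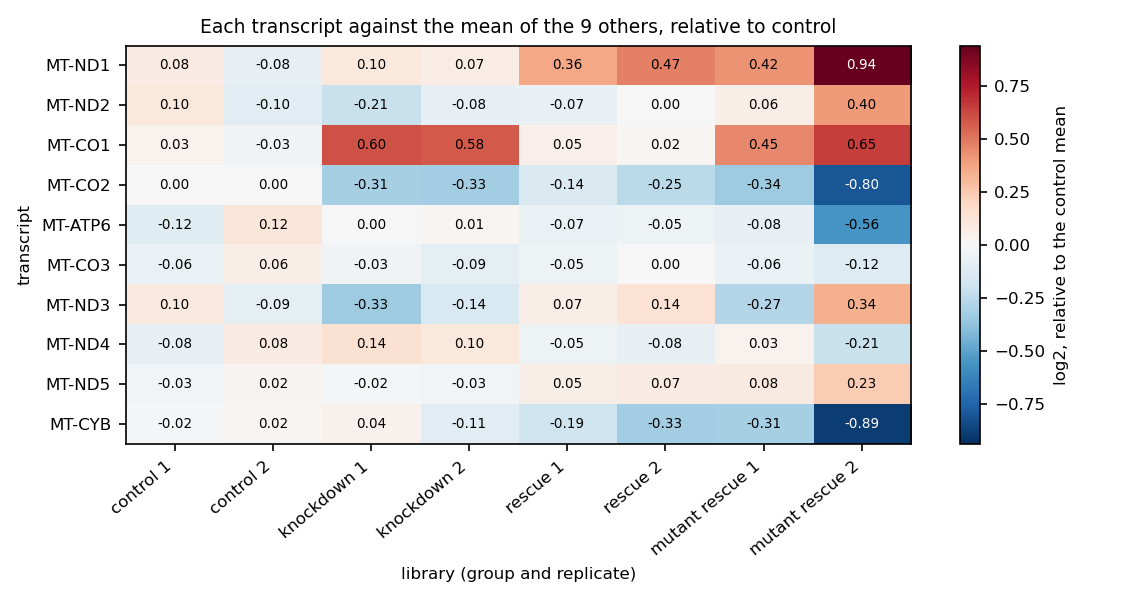
Each transcript's log2 value minus the mean of the other 9 in the same library, relative to its control mean (colour and printed value, log2), for the 8 libraries. MT-CO1 is positive in knockdown and mutant rescue and near 0 in rescue, and MT-ND1 is positive in all 4 rescue and mutant rescue libraries.

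Over the 8 libraries the 45 pairs among the 10 transcripts had a median Pearson r of 0.853, as a description of values that share libraries and their scaling. Counts out of the 10, set above beside shares of all genes, are therefore not counts of independent results. The closest pairs were MT-CO3 with MT-ND5 (0.983) and MT-ND2 with MT-ND5 (0.978). The loosest were MT-CYB with MT-ND3 (0.323) and MT-CYB with MT-ND1 (0.325).

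The 3 mitochondrially encoded genes outside the set gave the following. MT-ND4L, a small complex I subunit, was lowest in rescue (10.29 and 10.31) with 10.66 and 10.79 in knockdown, a difference of -0.43 (SE 0.13, adjusted p = 0.107, limma). MT-ATP8, the second mitochondrial subunit of ATP synthase, had a difference of -0.38 (SE 0.16, adjusted p = 0.227). MT-ND6 was at 9.92 and 10.02 in rescue and at 10.36 and 11.41 in mutant rescue, a difference of -0.92 (SE 0.28, adjusted p = 0.0717).

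No row of the 2 mitochondrial ribosomal RNAs was used here, but nuclear genes that resemble the large one were. The table holds 190 nuclear copies of mitochondrial genes by symbol, of which 12 passed the filter, and the 3 of highest mean were MTRNR2L12, MTRNR2L8 and MTRNR2L1, which derive from the 16S ribosomal RNA gene. Reads of the mitochondrial RNA could be given to such copies, so their values are uncertain in origin. MTRNR2L12 had 13.85 and 13.94 in control, 14.22 and 14.33 in knockdown, 13.33 and 13.40 in rescue, and 14.34 and 14.47 in mutant rescue.

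In MTRNR2L12 no group overlapped another, though knockdown (14.33) and mutant rescue (14.34) almost met, and rescue was the lowest. MTRNR2L12 fell by 0.91 from knockdown to rescue (adjusted p = 0.00139, limma) and was lower in rescue than in mutant rescue (-1.04, adjusted p = 0.000892). MTRNR2L8 and MTRNR2L1 were called lower in both of these comparisons too, at -0.89 and -0.70 against knockdown (adjusted p = 0.0149 and 0.0431) and at -1.06 and -1.11 against mutant rescue (0.00581 and 0.00486). Over all 13030 genes tested, 133 were called lower in rescue against knockdown and 601 in rescue against mutant rescue. Without mutant rescue replicate 2 the differences from mutant rescue were -0.97, -0.90 and -0.86, and all 3 were called (adjusted p = 0.00371, 0.0241 and 0.00846). The calls of MTRNR2L8 and MTRNR2L1 against knockdown were lost without any one of the 4 libraries compared, with adjusted p of up to 0.169 and 0.313, and that of MTRNR2L1 also without either control library.

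Copies of the 10 themselves were lower. MTATP6P1 is 98.5% identical to MT-ATP6 over 681 bases, had a mean log2 value of 10.19 and had an r of 0.99 with MT-ATP6 over the 8 libraries, as a description. MTND2P28, 98.4% identical to MT-ND2, had a mean of 5.28 (r 0.80 with MT-ND2), and MTND1P23, 99.1% identical to MT-ND1 over 352 bases, one of 4.90 (r 0.22 with MT-ND1). How reads that fit a gene and its copy were shared out is not stated, so the values of these 3 transcripts are uncertain to that extent.

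The nuclear subunits of the same complexes, and those of complex II, to which none of the 10 belongs, were counted beside the mitochondrial transcripts. Of 79 nuclear subunits of complexes I to V, all of them tested, limma called 9 lower and none higher in knockdown against control (7.44% and 5.35% of all genes), with a median difference of -0.26 where the 10 mitochondrial transcripts had 0.20. Without control replicate 1 these medians were -0.39 and -0.02, and without control replicate 2 they were -0.13 and 0.41. NDUFA5 of complex I fell by 0.64 (adjusted p = 0.00762) and ATP5J of complex V fell by 0.64 (adjusted p = 0.0186). The medians by complex ran from -0.09 in complex II to -0.31 in complex V. None of these 9 calls held without either knockdown library, and fewer genes were then called over all genes as well. The number called also moved when other libraries were left out, here and over all genes. The authors' deposited table calls 34 lower, and over all genes 1740 of the 22884 it tests.

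In rescue against knockdown none of the 79 was called in any leave-one-out fit, and their median was 0.03, where the mitochondrial transcripts had -0.29. In mutant rescue against knockdown 7 were called higher and none lower (5.58% and 5.73% of all genes), with a median of 0.31. CYC1, the cytochrome c1 of complex III, rose by 0.50 (adjusted p = 0.0396, limma) and NDUFA12 of complex I by 0.77 (adjusted p = 0.033). In rescue against mutant rescue 3 of 79 were called lower (NDUFB5, ATP5G2 and ATP5L), where 4.61% of all genes were, with a median of -0.29. Neither the 7 higher calls nor the 3 lower ones held without mutant rescue replicate 2 or without either knockdown library. The 3 lower ones were also lost without either rescue library. Without mutant rescue replicate 1 more were called in both comparisons, as was the case over all genes. The medians of the 79 were 0.22 and -0.17 without replicate 2, and 0.43 and -0.4 without replicate 1. With the libraries scaled to equal linear totals without mitochondrial rows, the 79 had 1 call higher and 3 lower in mutant rescue against knockdown. All genes had 222 calls higher and 2761 lower there. The median of the 79 was 0.09, against -0.17 over all genes.

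**Figure D5:**
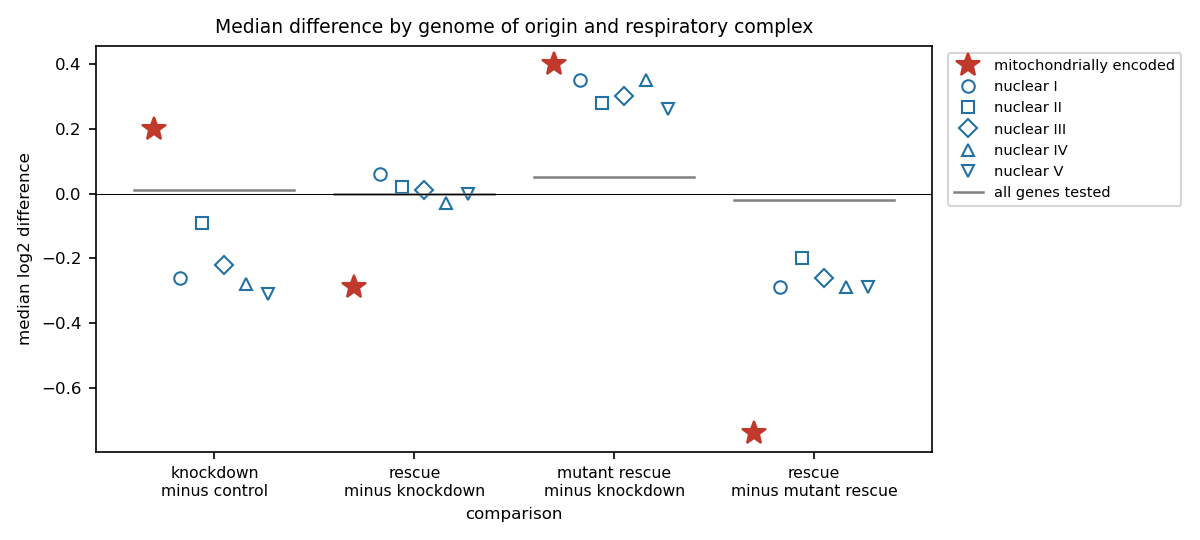
Median log2 difference (vertical axis) of the 10 mitochondrially encoded transcripts (star) and of the nuclear subunits of complexes I to V (open symbols) in 4 comparisons, with grey lines for all genes tested. The star is above the open symbols in knockdown minus control (0.20) and in mutant rescue minus knockdown (0.40), and below them in the other two (-0.29 and -0.74). In mutant rescue minus knockdown this order reversed without mutant rescue replicate 2, at 0.13 against 0.22 for all nuclear subunits.

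Genes that make, cut, stabilise or degrade mitochondrial RNA were followed as 2 lists. Of 10 genes of mitochondrial transcription, 2 were called lower in knockdown against control (7.44% of all genes): TFAM, which packages mitochondrial DNA and starts its transcription (-0.41, adjusted p = 0.028, limma), and MTERF2 (-0.46, adjusted p = 0.0289). The group mean of TFAM was lowest in mutant rescue (10.32, against 10.77 in control), while that of MTERF1 was highest there (9.65, against 9.18). In mutant rescue against knockdown 2 were called higher (5.58% of all genes), MTERF3 (0.55) and TFB1M (0.43), and none was called in rescue against knockdown. With the libraries scaled to equal linear totals neither MTERF3 nor TFB1M was called, and the median of the list there was 0.05. All 4 of these calls were lost in some leave-one-out fits, the 2 of knockdown without either knockdown library and without control replicate 2.

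Of 23 genes of mitochondrial RNA processing, stability and decay, PNPT1 stood out by its level in rescue. It encodes polynucleotide phosphorylase, an exoribonuclease of mitochondria. It had 11.88 and 11.82 in control, 11.61 and 11.62 in knockdown, 12.79 and 12.79 in rescue, and 11.92 and 11.58 in mutant rescue. Both rescue libraries were the highest of the 8. They were the lowest of the 8 for 2 of the 10 mitochondrial transcripts, MT-CYB and MT-CO2. For MT-ND1 they (12.43 and 12.62) lay above both control libraries (12.15 and 12.39). Whether these levels are linked to that of PNPT1 was not tested. The difference was 1.17 from knockdown (SE 0.12, adjusted p = 0.000564, limma) and 1.04 from mutant rescue (adjusted p = 0.00167), and both were called in all 8 leave-one-out fits.

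In knockdown against control 2 of the 23 were called lower and none higher, where 7.44% and 5.35% of all genes were. TRMT10C, a subunit of the RNase P that frees transfer RNAs from the precursor, fell by 0.72 (adjusted p = 0.00498, limma), and SLIRP, which with LRPPRC stabilises mitochondrial messenger RNAs, fell by 0.53 (adjusted p = 0.0382). In mutant rescue against knockdown 3 were called higher (FASTK, TRMT10C and TBRG4, by 0.36 to 0.51, with 5.58% of all genes), and in rescue against mutant rescue REXO2 and FASTK were called lower (-0.43 each). Over the 8 leave-one-out fits, the calls in knockdown were made in 6 for TRMT10C and 4 for SLIRP. Those in mutant rescue against knockdown were made in 5 for FASTK, 4 for TRMT10C and 0 for TBRG4, and those in rescue against mutant rescue in 3 for REXO2 and 1 for FASTK. With the libraries scaled to equal linear totals the list had 0 calls higher and 3 lower in mutant rescue against knockdown (median -0.08), and 2 higher and 0 lower in rescue against mutant rescue.

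Of 17 genes that maintain mitochondrial DNA, 3 were called lower in knockdown against control (7.44% of all genes): FEN1 (-0.66), MGME1 (-0.65) and RNASEH1 (-0.49), nucleases that act on primers and flaps, in 6, 5 and 5 of the 8 leave-one-out fits. TK2, the mitochondrial thymidine kinase, was lower in rescue than in mutant rescue (-0.78, adjusted p = 0.0369, limma) and higher in mutant rescue than in control (1.24, adjusted p = 0.00284), calls made in 3 and 8 of the 8 leave-one-out fits. Of 13 factors of mitochondrial translation, the elongation factor gene GFM1 alone was called lower in knockdown (-0.83, adjusted p = 0.00436, limma), where 7.44% of all genes were. It was also higher in rescue than in mutant rescue (0.53, adjusted p = 0.0265), and these calls were made in 7 and 3 of the 8 fits.

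Of 42 tested assembly factors of the respiratory complexes, TTC19, which acts in the assembly of complex III, had the largest change among those named. Its group means were 9.96 in control, 10.15 in knockdown, 10.24 in rescue and 9.14 in mutant rescue. It was lower in mutant rescue than in knockdown (-1.0, adjusted p = 0.00271, limma) and lower than in rescue (rescue minus mutant rescue 1.1, adjusted p = 0.00105), calls that were made in all 8 leave-one-out fits. Of 9 tested regulators of mitochondrial biogenesis, the nuclear receptor gene ESRRA alone was called in knockdown against control (0.68, adjusted p = 0.0251), and in 4 of the 8 leave-one-out fits.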

How the data were processed

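Polyadenylated RNA of MOLM13 cells was measured in 8 libraries, 2 in each of 4 groups taken from the sample titles. Trim Galore, kallisto and HOMER are the tools, and GRCh38 the genome build, in the submitters' processing notes, which give neither versions nor roles. Per the file headers, the table was written by HOMER's getDiffExpression.pl. For each library it has a column of log2 values, normalized by the authors with an unstated option; low values lie close together. For each pair of groups the authors also deposited a log2 fold change and p-values before and after adjustment. Counts are not used here, so depth is unknown, no counting error can be given, and precision is that of 2 libraries per group.

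From these values limma 3.58.1 in R 4.3.3 was run without a pseudocount, on 1 model of group means (4 residual degrees of freedom, empirical Bayes with mean trend, two-sided). Of 35370 rows, 1 had no symbol and was left out, 10937 were at 0 in every library, and 13030 passed the filter (at least 1 ppm of the linear total in at least 2 libraries). A gene was called when its p, adjusted by Benjamini-Hochberg over all 13030, was under 0.05. The procedure was tested on simulated data. Differences of low genes are understated on this scale, and those of abundant genes may be too.

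All 10 transcripts were named. From each gene list, up to 3 called genes per comparison with the smallest adjusted p were eligible, as were the 3 nuclear copies of highest mean. Other copies were named after their values were seen, for their identity to a member. The members and the lists were chosen with earlier results of these data known. Alternatives changed the filter, the trend, the scaling, the groups fitted, a replicate block and each library in turn; list counts under them were added after the data were seen. Positions and sequences came from GENCODE v29.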

Additional observations from a re-analysis of the deposited data

Results flagged for a closer look

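The difference between rescue and mutant rescue passed the test in 5 transcripts. None of the 10 was called against knockdown in either group, so what was tested is the difference between the 2 rescue groups themselves. By limma the log2 difference was -1.24 for MT-CO1 (adjusted p = 0.0122), -1.02 for MT-ND2 (0.0335), -0.86 for MT-ND5 (0.0405), -0.76 for MT-ND4 (0.0323) and -0.72 for MT-CO3 (0.0497). In each of the 5, both rescue libraries were below both mutant rescue libraries. Without mutant rescue replicate 2 the call of MT-CO1 remained and the other 4 did not. Without either rescue library, and with only the 2 groups fitted, none of the 5 was called, and the call of MT-CO3 was also lost under 4 further settings of the filter, trend or scaling.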

How the results depend on the processing

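Depth cannot be judged from log2 values, and 2 libraries per group limit every comparison. For knockdown against control the count of the 10 transcripts called was 0, and 1 with a filter of 5 ppm, with equal medians, with equal linear totals, with only the 2 groups fitted and in the authors' deposited table. For rescue against knockdown it was 0, and 2 with equal linear totals, 5 with only the 2 groups and 5 in the authors' deposited table. For mutant rescue against knockdown it was 0, and 1 with equal medians and 2 in the authors' deposited table. For rescue against mutant rescue it was 5, and 3 without a mean trend, 0 with only the 2 groups and 9 in the authors' deposited table, where the median was -1.0. For mutant rescue against control it was 5, and 2 with only the 2 groups. The cause of these shifts was not tested.

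Over all genes, fitting only the 2 groups gave 2620 calls in place of 1667 for knockdown against control, 1246 in place of 553 for rescue against knockdown, 279 in place of 1473 for mutant rescue against knockdown, 192 in place of 1370 for rescue against mutant rescue, and 1793 in place of 3241 for mutant rescue against control. The authors' deposited table has 2615 and 1319 for the first 2. Scaling to equal linear totals without mitochondrial rows moved the median of all genes to -0.12, -0.17 and -0.15 in rescue against knockdown, mutant rescue against knockdown and mutant rescue against control. It turned the higher and lower calls from 697 and 970 to 927 and 711 in knockdown against control, from 420 and 133 to 278 and 459 in rescue against knockdown, from 727 and 746 to 222 and 2761 (2983 in all) in mutant rescue against knockdown, from 769 and 601 to 1424 and 384 in rescue against mutant rescue, and from 1810 and 1431 to 1140 and 3332 in mutant rescue against control. Under it MT-CO2 and MT-ATP6 turned to -0.01 and -0.08 in mutant rescue against knockdown, and MT-CYB and MT-CO2 to -0.04 and -0.01 in mutant rescue against control. MT-ND3 in knockdown against control turned to -0.01 with equal medians and to -0.04 in the authors' deposited table. Counting all mitochondrially encoded rows raised the share to 0.756% and 0.779% in knockdown and to 0.521% and 0.549% in rescue.

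Replicate numbers are shared by the groups, but the labels do not say that they pair the libraries, and the correlations of the replicate differences between groups, -0.0212 to 0.4137, do not all exceed 0.1. With the replicate number as a block (replicate block) the counts of the 10 called were 1 in knockdown against control, 1 in rescue against knockdown, 3 in mutant rescue against knockdown and 8 in rescue against mutant rescue.

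Leaving out 1 library at a time, where a lone sample is assumed to vary like the other groups, the 10 had 0 to 1, 0 to 1, 0 to 6, 0 to 7, 0 to 1 and 0 to 7 calls in knockdown against control, rescue against knockdown, mutant rescue against knockdown, rescue against mutant rescue, rescue against control and mutant rescue against control. In that order the medians were -0.02 to 0.41, -0.35 to -0.24, 0.13 to 0.72, -1.09 to -0.49, -0.33 to 0.08 and 0.36 to 0.99, and all genes called 179 to 2359, 176 to 864, 79 to 2801, 241 to 2870, 361 to 1422 and 1440 to 3953. Uncalled differences that changed sign or reached 0 were, in knockdown against control, MT-ND2 (-0.01 to 0.19), MT-ND3 (-0.12 to 0.12), MT-ND5 (0.00 to 0.42), MT-CYB (-0.02 to 0.40), MT-CO2 (-0.26 to 0.12), MT-CO3 (-0.07 to 0.41) and MT-ATP6 (-0.07 to 0.52). In rescue against knockdown they were MT-ND1 (-0.14 to 0.06) and MT-ND3 (-0.15 to 0.09). In rescue against control they were MT-ND3 (-0.13 to 0.07), MT-ND4 (-0.44 to 0.08), MT-ND5 (-0.27 to 0.15), MT-CO1 (-0.25 to 0.07), MT-CO3 (-0.39 to 0.09) and MT-ATP6 (-0.47 to 0.12). In mutant rescue against control they were MT-CYB (-0.09 to 0.33) and MT-CO2 (-0.05 to 0.33).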

Other observations

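Outside the mitochondrial genome, the 5 genes whose log2 values ran most alike to the mean of the 10 transcripts over the 8 libraries were EIF5AL1 (r 0.98), UBE2M (0.975), MAP2K2 (0.959), TMED4 (0.957) and LRRC75A (0.957), among 1268 genes that varied at least as much as that mean. The likeness is a description of 8 libraries that share their scaling. In MAP2K2, which encodes a kinase of the MAP kinase cascade, mutant rescue replicate 2 stood at 10.30 and the other 7 libraries between 8.30 and 9.21. In UBE2M, which encodes an enzyme that conjugates NEDD8, the same library stood at 7.67 and the others between 6.20 and 6.79. The second mutant rescue library was the highest of the 8 in both, as it was in each of the 10 transcripts but MT-CYB. The mean of the 10 was itself highest in that library (13.23). Because the alike genes were picked by their correlation with this mean, their peak there follows from the selection.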
